A study of Lactuca sativa with 36 samples.

Results

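The roots described here were those of Italian lettuce (Lactuca sativa var. ramose) seedlings that had received melatonin beforehand, and the comparison was their net change over 5 days of cadmium, RCdM5 minus RCdM0. The 6 libraries, 3 per group, were taken by label from the 36 libraries of the series. RCdM0 was root pretreated with 1 μmol/L melatonin and sampled on day 0 of treatment with 50 μmol/L CdCl2, and RCdM5 was root of the same pretreatment sampled on day 5. RCdM1 was the same root on day 1 by title and treatment label, although the label of replicate 2 counts a longer time before treatment than those of replicates 1 and 3, RCd0, RCd1 and RCd5 were roots given CdCl2 without melatonin on days 0, 1 and 5, and LCdM0 and LCdM5 were melatonin-pretreated leaves on days 0 and 5. All of these groups carried CdCl2 in their labels and none was kept free of it to day 5, so the effect of cadmium cannot be told apart from plant age or harvest day. The labels call the 3 samples of a group replicates without saying whether they were separate plants. The study describes them as 3 biological repeats, without saying how many plants made up a sample. The p-values therefore measure the spread between these samples.

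Cadmium enters roots through carriers of essential metals such as iron, zinc and manganese, and it disturbs the balance of reactive oxygen species. Superoxide dismutases convert superoxide to hydrogen peroxide, class III peroxidases use hydrogen peroxide and also act with laccases in lignin formation in the cell wall, and nitrate assimilation supplies the nitrogen for amino acids and thiols. Melatonin (N-acetyl-5-methoxytryptamine) is an indoleamine that plants make from tryptophan and that scavenges radicals.

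Expression was given as FPKM, fragments scaled by transcript length and by the mapped fragments of the library. Of 19584 genes, 17227 reached 1 FPKM in at least 3 of the 18 root libraries and were tested. The sequenced depth was 52902886 to 56730750 clean reads per RCdM0 library and 44019838 to 46858708 per RCdM5 library. The share of bases at quality Q30 was 93.28, 93.37 and 93.01% in RCdM0 and 91.22, 90.46 and 89.48% in RCdM5, so base quality and harvest day cannot be told apart in these 6 libraries. Photosynthesis and antenna genes, 44 leaf markers, summed to 0.818 to 1.24% of the mean leaf level in RCdM0 and to 0.325 to 0.725% in RCdM5, with 0 to 4 of the 44 listed at 0 per root library. Genes annotated to nicotianamine synthase, which makes a metal chelator found in root and leaf, were present in every one of the 6 libraries, Lsat_1_v5_gn_5_104220 at 27.9 to 107 FPKM and Lsat_1_v5_gn_8_24121 at 9.13 to 20.6 FPKM.

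One library of the comparison stood apart from its label. RCdM5 replicate 3 correlated with RCd5 replicates 1 and 2 at r = 0.961 and 0.959 across genes, and with RCdM5 replicates 1 and 2 at 0.955 and 0.937. The reverse held for RCd5 replicate 3, which correlated with RCdM5 replicates 1 and 2 at 0.962 and 0.965 and with RCd5 replicates 1 and 2 at 0.939 and 0.941. On the first principal component (28.7% of the variance) the RCdM libraries lay between 13.4 and 64.1 except for RCdM5 replicate 3 at −22.3, and the RCd libraries between −62.8 and −21.5 except for RCd5 replicate 3 at 40.1. Both libraries were kept under their labels, and counts are given with and without them. The second component (14.7%) separated the day 0 root libraries, at 30.6 to 49.5, from those of days 1 and 5, at −37.4 to −4.44.

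**Figure D1:**
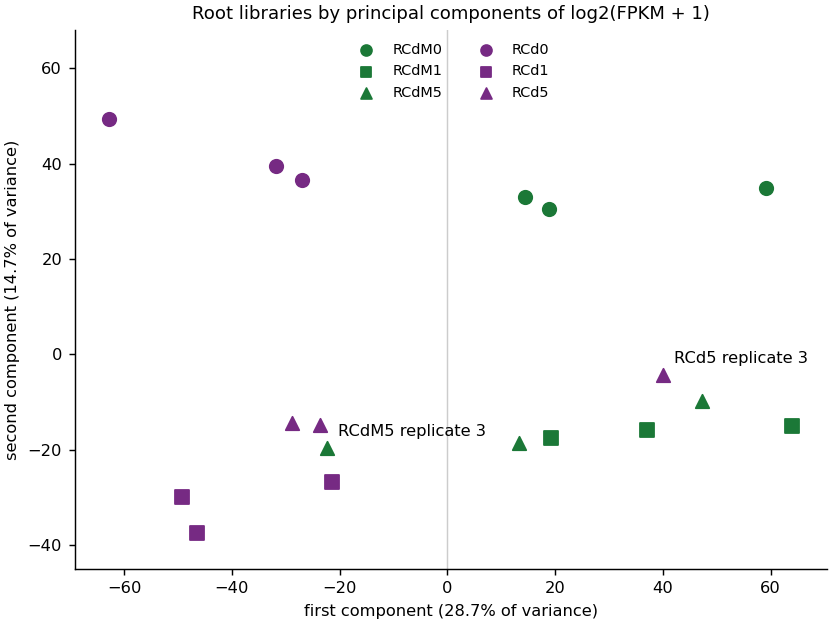
Scores of the 18 root libraries on the first and second principal components of log2(FPKM + 1), with one point per library and colours for groups. RCdM5 replicate 3 (−22.3 on the first component) sits among the libraries without melatonin and RCd5 replicate 3 (40.1) among those with it, while day 0 lies apart from days 1 and 5 on the second.

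Over the 5 days 530 genes changed between RCdM0 and RCdM5 (3.08% of those tested, limma on log2(FPKM + 1), adjusted p under 0.05), of which 351 rose (2.04%) and 179 fell (1.04%). Risers outnumbered fallers and moved further. The median change was 1.28 on the log2 scale among risers and −1.01 among fallers, against −0.02 over all tested genes, and 72 risers but 15 fallers changed by at least 2. In all 530 the RCdM0 and RCdM5 libraries did not overlap, which was also so for 21.2% of all tested genes (11.2% higher, 10.1% lower). Without RCdM5 replicate 3 the count was 217 (148 higher, 69 lower), 200 of them among the 530. Each of the 530 kept its direction, but groups that do not overlap fix that in advance, so nothing is read from it. Leaving out RCdM0 replicate 1, 2 or 3 gave 258, 265 and 302 genes, leaving out RCdM5 replicate 1 gave 235, and leaving out RCdM5 replicate 2 gave 558. With the Q30 share as a covariate no gene passed (1134 at an unadjusted p under 0.05, against 2974 without it), and the median standard error of the 530 went from 0.236 to 0.443. In bulk root, fewer cells of a type and less RNA per cell cannot be told apart.

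The gene groups below are the genes that the study's enrichment tables hold under a GO or KEGG term. The study picked those genes as changed somewhere in these 36 libraries, so their directions are not independent evidence. Such a term, or a description, was at hand for 171 of the 530 genes. The shares of a list past the test are set beside the 2.04% of all tested genes that were higher and the 1.04% that were lower. Genes picked as changed in these libraries are favoured in such shares. An excess over all genes is therefore no evidence about a list. Fitting only the compared groups, which called 140 genes in all, left 7 risers of metal ion transport, 5 of the extracellular matrix, 2 of phenylpropanoid biosynthesis and 1 each of the peroxidase and plant-pathogen lists. It left 3 fallers of carbon fixation and 1 each of nitrogen metabolism, superoxide metabolism and copper ion binding, and 0 in the other lists.

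Genes of metal ion transport included some of the steepest rises in these roots. Of 34 tested members 8 rose (23.5%, against 2.04% of all genes), 2 fell (5.88%, against 1.04%) and 24 did not pass, with a median change of 0.02. Leaving out one library left 7 to 10 risers and 0 to 1 fallers. Lsat_1_v5_gn_8_106761, annotated to cation and metal ion transport, was 0, 1.01 and 0 FPKM in RCdM0 and 29.1, 24.7 and 42.8 FPKM in RCdM5. It was close to absent on day 0, at 4.03, 4.85 and 7.89 FPKM on day 1, and present in each day 5 library (log2 change 4.68, SE 0.37, limma adjusted p = 1.71e-05). Lsat_1_v5_gn_4_44480, a metal ion transport gene of the transmembrane class, went from 0.0883, 0 and 0.377 FPKM to 10.2, 10.7 and 31.5 FPKM (log2 change 3.82, SE 0.38, limma adjusted p = 0.000109). Since both were near 0 on day 0, the size of their change depends on the pseudocount of 1.

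Other metal ion transporters were already abundant on day 0 and rose several fold. Lsat_1_v5_gn_4_150921 was 102, 102 and 96.7 FPKM in RCdM0 and 612, 456 and 669.9 FPKM in RCdM5, 5.78 times the day 0 mean (log2 change 2.50, SE 0.25, limma adjusted p = 0.000109). Lsat_1_v5_gn_6_13481 rose from 203, 160.1 and 225 FPKM to 693, 729.9 and 954 FPKM (log2 change 2.01, SE 0.21, limma adjusted p = 0.000143), and Lsat_1_v5_gn_7_69641 from 43.4, 55.3 and 37.4 FPKM to 177, 154 and 198 FPKM (log2 change 1.94, SE 0.20, limma adjusted p = 0.000143). In these genes the lowest day 5 library stood well above the highest day 0 library. Lsat_1_v5_gn_4_56181 rose from 115, 90.2 and 109.6 FPKM to 260.2, 322 and 309.8 FPKM (log2 change 1.49, SE 0.24, limma adjusted p = 0.00382). Lsat_1_v5_gn_8_7341, 6.39, 7.87 and 9.69 FPKM in RCdM0 and 48.5, 31.5 and 84.9 FPKM in RCdM5, was highest in RCdM5 replicate 3, and without that library its limma adjusted p went from 0.0114 to 0.0576. Lsat_1_v5_gn_3_119200, annotated to potassium ion transport, rose by 1.26 (SE 0.18, limma adjusted p = 0.0018).

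Both members that fell were less certain. Lsat_1_v5_gn_9_116800, annotated to sodium ion transport, was 114, 130.3 and 119.8 FPKM in RCdM0 and 40.2, 56.7 and 77.2 FPKM in RCdM5 (log2 change −1.10, SE 0.23, limma adjusted p = 0.02). Lsat_1_v5_gn_9_90040 changed by −1.01 on the log2 scale (SE 0.25, limma adjusted p = 0.0463). Each lost its call in 4 or more of the 6 fits that left out one library. None of the 8 tested iron ion transport genes passed (0 at an unadjusted p under 0.05), and their changes ran from −0.52 to 0.12. The abundant member Lsat_1_v5_gn_4_29961, a ferrous iron transport gene, was 329, 439.9 and 350.3 FPKM in RCdM0 and 316, 342 and 341 FPKM in RCdM5, and the groups overlapped.

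**Figure D2:**
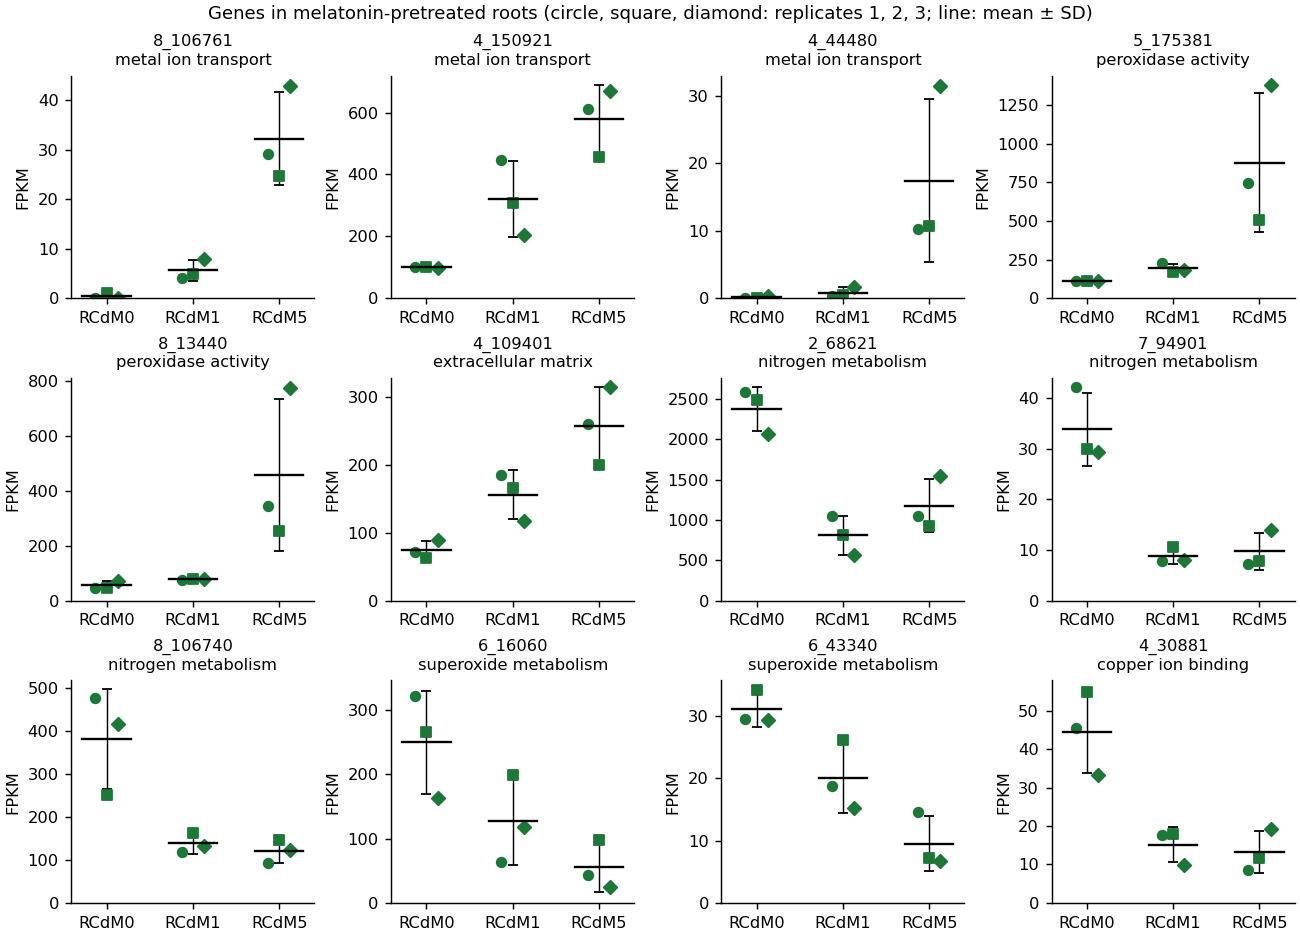
FPKM of selected genes in each root library with melatonin on days 0, 1 and 5, with one point per library, bars for the mean and its SD over 3 libraries, and the prefix Lsat_1_v5_gn_ left off the names. The 3 day 5 points of the metal ion transport gene 4_150921 (612, 456 and 669.9) stand above its day 0 points, and those of the superoxide gene 6_43340 (14.6, 7.25 and 6.67) below.

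Of 18 tested peroxidase genes 4 rose and none fell (22.2% higher, against 2.04% of all genes), while the median of the list was −0.03. The 2 strongest rose beyond every day 0 library in each replicate. Lsat_1_v5_gn_5_175381, annotated to peroxidase activity, was 113, 112 and 108 FPKM in RCdM0 and 744, 508 and 1377 FPKM in RCdM5, a rise to 7.89 times the day 0 mean (log2 change 2.84, SE 0.28, limma adjusted p = 0.000109). Lsat_1_v5_gn_8_13440 was 46.9, 47 and 72.7 FPKM in RCdM0 and 343, 254 and 774 FPKM in RCdM5 (log2 change 2.88, SE 0.46, limma adjusted p = 0.00382). In both the replicate 3 library was the highest on day 5, and without it the rises were 2.46 and 2.42 on the log2 scale, with the calls kept. Day 1 values were intermediate, 226, 167 and 185 FPKM for the former and 74.4, 79.1 and 79 FPKM for the latter, and the larger step came after day 1.

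The weaker peroxidases were less certain. Lsat_1_v5_gn_8_37660 went from 4.87, 3.76 and 5.02 FPKM to 8.55, 17.7 and 39 FPKM (log2 change 1.80, SE 0.40, limma adjusted p = 0.026), and Lsat_1_v5_gn_5_150900 from 1.47, 1.69 and 2.12 FPKM to 4.5, 4.94 and 7.42 FPKM (log2 change 1.24, SE 0.24, limma adjusted p = 0.0137). Neither call held without RCdM0 replicate 1 or without RCdM5 replicate 3, when the list counted 2 risers. The most abundant tested peroxidase, Lsat_1_v5_gn_8_129120, was 1066, 1329 and 940.0 FPKM in RCdM0 and 354, 273 and 498 FPKM in RCdM5, lower in each day 5 library than in any day 0 library but not past the test (log2 change −1.60, SE 0.54, limma adjusted p = 0.139). The phenylpropanoid list, the pathway to lignin precursors, held the same 4 risers among 47 tested genes (8.51%, against 2.04% of all genes), 0 fallers, against 1.04%, and a median of −0.04.

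Laccases, copper oxidases that couple monolignols, went both ways. Lsat_1_v5_gn_2_125601 was 2.92, 2.54 and 3.38 FPKM in RCdM0 and 6.94, 11.2 and 33.1 FPKM in RCdM5 (log2 change 1.92, SE 0.41, limma adjusted p = 0.0218), and Lsat_1_v5_gn_9_24581 was 2.1, 3.64 and 4.6 FPKM in RCdM0 and 0.163, 1.28 and 0.499 FPKM in RCdM5 (log2 change −1.45, SE 0.29, limma adjusted p = 0.0168). One rose and the other fell to near 1 FPKM or below. Neither call held without RCdM5 replicate 3, where the adjusted p was 0.0544 and 0.0643. None of the other laccases that the study names by identifier passed. The log2 change was −2.003 for Lsat_1_v5_gn_9_36021, −1.67 for Lsat_1_v5_gn_3_76141, −0.38 for Lsat_1_v5_gn_8_71281 and −0.08 for Lsat_1_v5_gn_8_12380, with limma adjusted p of 0.137, 0.105, 0.668 and 0.963.

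Of 4 tested genes of superoxide metabolism 3 fell, against 1.04% of all genes, with a list median of −1.51, and 2 or 3 did so with one library left out. Lsat_1_v5_gn_6_43340, a copper/zinc superoxide dismutase gene (SOD1), was 29.5, 34.3 and 29.4 FPKM in RCdM0 and 14.6, 7.25 and 6.67 FPKM in RCdM5 (log2 change −1.68, SE 0.27, limma adjusted p = 0.00407). Lsat_1_v5_gn_6_10640 of the same list was 26.1, 22.1 and 20.1 FPKM in RCdM0 and 9.9, 8.72 and 6.55 FPKM in RCdM5 (log2 change −1.35, SE 0.18, limma adjusted p = 0.000941). These calls held without any one of the 6 libraries, and the groups were far from touching. The most abundant SOD1 copy, Lsat_1_v5_gn_6_16060, was 322, 265 and 163 FPKM in RCdM0 and 43.2, 97.5 and 25.2 FPKM in RCdM5 (log2 change −2.32, SE 0.58, limma adjusted p = 0.046). Its spread was wide, RCdM5 replicate 3 was the lowest, and the call held only in the fit without RCdM5 replicate 2 among those that left out one library. A further SOD1 copy, Lsat_1_v5_gn_2_58341, was 3.95, 2.92 and 3.72 FPKM in RCdM0 and 5.83, 4.73 and 5.72 FPKM in RCdM5 and did not pass (limma adjusted p = 0.189). The fourth gene of the list, Lsat_1_v5_gn_2_125000, was 112, 95.5 and 84.1 FPKM in RCdM0 and 151, 76.9 and 109.6 FPKM in RCdM5 with overlapping groups (limma adjusted p = 0.857).

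Copper ion binding, 31 tested genes, had 4 fallers (12.9%, against 1.04% of all genes, the laccase Lsat_1_v5_gn_9_24581 among them), the laccase Lsat_1_v5_gn_2_125601 as its 1 riser (3.23%, against 2.04%) and a median of −0.44. The fallers ranged between 1 and 7 with one library left out. Lsat_1_v5_gn_4_30881, an oxidoreductase gene of this list, was 45.6, 54.9 and 33.2 FPKM in RCdM0 and 8.62, 11.8 and 19.2 FPKM in RCdM5 (log2 change −1.72, SE 0.30, limma adjusted p = 0.00697). It fell in each day 5 library and in every fit that left out one library. Lsat_1_v5_gn_9_42801 was 764, 664 and 392 FPKM in RCdM0 and 115, 128 and 91.1 FPKM in RCdM5 (log2 change −2.39, SE 0.55, limma adjusted p = 0.0295), and its call was lost without RCdM0 replicate 1 or 2 or RCdM5 replicate 1 or 3.

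The extracellular matrix list held calcium ion binding genes and a protein kinase gene among those that rose. Of 23 tested genes 6 rose (26.1%, against 2.04% of all genes), none fell, 18 had a positive change and the median was 0.84. All 23 came from enrichment tables of comparisons that used RCdM libraries, and with one library left out the risers numbered 2 to 4. Lsat_1_v5_gn_4_109401, annotated to calcium ion binding, was 72.2, 63.1 and 88.9 FPKM in RCdM0 and 259.7, 199.7 and 314 FPKM in RCdM5 (log2 change 1.76, SE 0.31, limma adjusted p = 0.00677). It had risen by day 1, at 186, 167 and 117 FPKM, and its call held without any one library. Lsat_1_v5_gn_3_125141, a cation binding gene, was 19.1, 25.5 and 16.2 FPKM in RCdM0 and 85.9, 78.3 and 118 FPKM in RCdM5 (log2 change 2.16, SE 0.43, limma adjusted p = 0.0141) and stood at 143, 214 and 58.9 FPKM on day 1, but its call was lost without RCdM0 replicate 1 or 3 or RCdM5 replicate 3. Lsat_1_v5_gn_6_101381, annotated to kinase activity, rose from 80.6, 77.6 and 59.7 FPKM to 148, 118 and 147 FPKM (log2 change 0.92, SE 0.17, limma adjusted p = 0.00942) and kept its call throughout those fits. The other risers were Lsat_1_v5_gn_3_99041, Lsat_1_v5_gn_2_87480 and Lsat_1_v5_gn_9_7881, with log2 changes of 1.48, 1.81 and 1.09. Both Lsat_1_v5_gn_2_87480 and Lsat_1_v5_gn_9_7881 lost the call whichever library was left out, and Lsat_1_v5_gn_3_99041 lost it without RCdM0 replicate 1 or 2 or RCdM5 replicate 3.

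Plant-pathogen interaction genes, which overlap with calcium signalling, had 4 risers (11.8%, against 2.04% of all genes) and 1 faller (2.94%, against 1.04%) among 34 tested and a median of 0.43. The risers numbered 0 whichever library was left out, so their number rests on each of the 6 libraries. They were Lsat_1_v5_gn_9_7881, the transcription factor gene Lsat_1_v5_gn_5_173860 at 3.34, 2.65 and 2.8 FPKM on day 0 and 5.92, 6.37 and 10.1 FPKM on day 5, Novelgene0390 and Lsat_1_v5_gn_3_139900. The faller, Lsat_1_v5_gn_3_98441, changed by −0.80 on the log2 scale (SE 0.19, limma adjusted p = 0.0354), a call that held only without RCdM0 replicate 1 among those fits.

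Of 11 tested genes of nitrogen metabolism 6 fell (54.5%, against 1.04% of all genes), none rose and 5 did not pass. All 11 changes were negative, with a median of −1.05, and that of Lsat_1_v5_gn_5_77601 was only −0.01 (limma adjusted p = 0.996). The count depended on single libraries, at 1 without RCdM0 replicate 1 or RCdM5 replicate 1, 2 without RCdM0 replicate 2 or RCdM5 replicate 2, 3 without RCdM0 replicate 3 and 5 without RCdM5 replicate 3. Lsat_1_v5_gn_8_106740, annotated to nitrate assimilation and molybdenum ion binding, was 475, 250.5 and 415 FPKM in RCdM0 and 92.9, 147 and 122 FPKM in RCdM5 (log2 change −1.62, SE 0.31, limma adjusted p = 0.0111), and Lsat_1_v5_gn_7_94901 of the same annotation was 42.1, 30 and 29.3 FPKM in RCdM0 and 7.3, 7.8 and 14 FPKM in RCdM5 (log2 change −1.74, SE 0.41, limma adjusted p = 0.0352). Nitrate reductase is the molybdenum enzyme of this pathway. Both stood at their lower level by day 1, at 118, 163 and 133 FPKM and 7.78, 10.6 and 7.93 FPKM.

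The other fallers of the nitrogen list were annotated to ammonia assimilation or to transport, or were sums of many isoforms. Lsat_1_v5_gn_2_68621, annotated to glutamate-ammonia ligase activity, the reaction of glutamine synthetase, was 2582, 2488 and 2066 FPKM in RCdM0 and 1045, 928 and 1547 FPKM in RCdM5 (log2 change −1.05, SE 0.25, limma adjusted p = 0.0329). Its day 1 values were 1053, 808 and 563 FPKM, below or near those of day 5. Lsat_1_v5_gn_1_62501, a transmembrane transport gene, fell from 7.47, 6.02 and 4.28 FPKM to 0.686, 0.86 and 1.22 FPKM (log2 change −1.83, SE 0.32, limma adjusted p = 0.00709), the one nitrogen gene whose call held without any single library. Lsat_1_v5_gn_1_63501, also of transmembrane transport, was 257, 270.1 and 173 FPKM in RCdM0 and 96.4, 56.9 and 117 FPKM in RCdM5 (log2 change −1.40, SE 0.35, limma adjusted p = 0.0442) and lost its call whichever library was left out. Its neighbour in the numbering, Lsat_1_v5_gn_1_63521, was 249.7, 252 and 156 FPKM in RCdM0 and 78.2, 45.9 and 89.6 FPKM in RCdM5 and did not pass (limma adjusted p = 0.0852). Such near copies may share reads. The sixth faller, Lsat_1_v5_gn_9_58201, was the sum of 292 isoforms and went from 2125, 2290.1 and 1569 FPKM to 1157, 815 and 1285 FPKM (log2 change −0.88, SE 0.20, limma adjusted p = 0.0281).

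**Figure D3:**
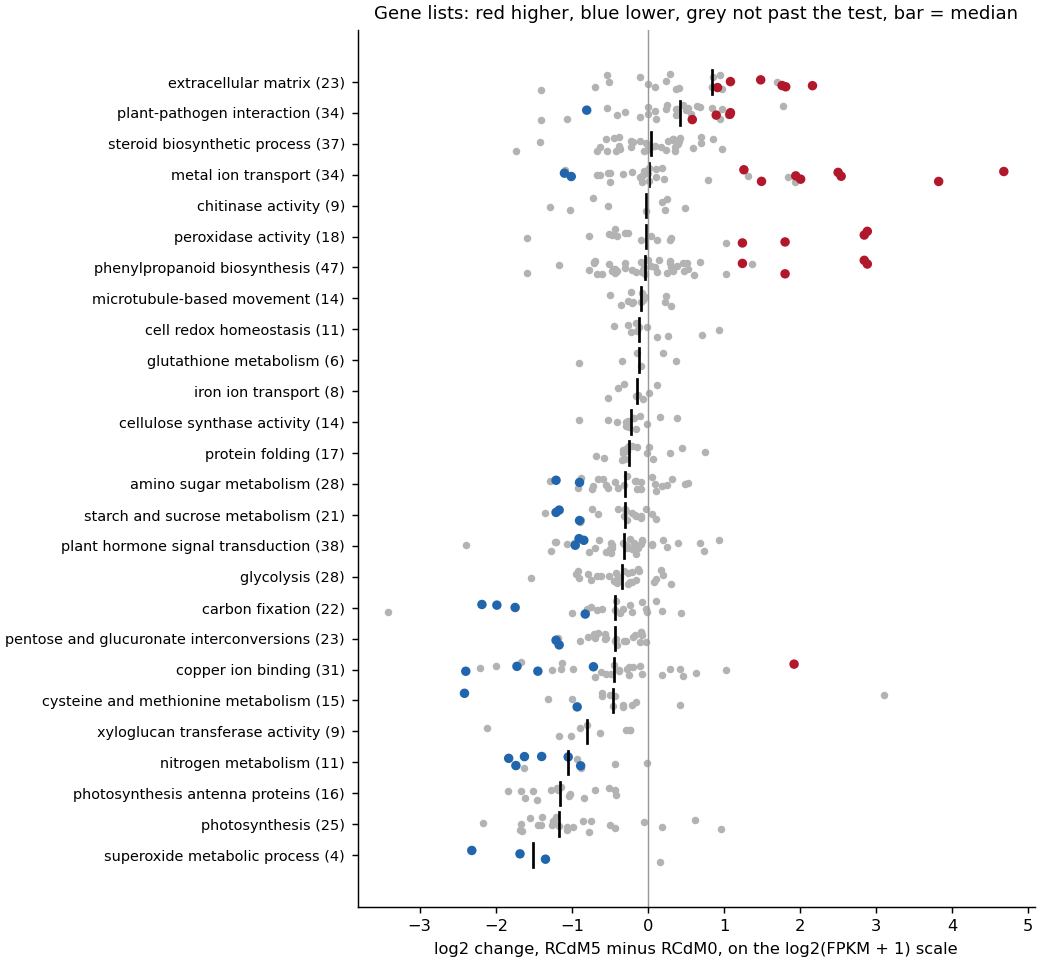
Change of each tested gene in the gene lists, as log2(FPKM + 1) in RCdM5 minus RCdM0, one line of points per list, red for genes past the test and higher, blue for those past it and lower, grey for the others, with a bar at the list median. All 11 nitrogen genes lie below 0, while metal ion transport reaches from −1.10 to 4.68 around a median of 0.02.

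Some carbon fixation genes, which are abundant in leaf, fell in these roots. In the carbon fixation list 4 of 22 tested genes fell (18.2%, against 1.04% of all genes), none rose and the median was −0.43. Lsat_1_v5_gn_2_79600 was 65.5, 34.7 and 55.1 FPKM in RCdM0 and 9.13, 12.9 and 9.12 FPKM in RCdM5 (log2 change −2.18, SE 0.40, limma adjusted p = 0.00933), and Lsat_1_v5_gn_4_153980 was 123, 82.5 and 149 FPKM in RCdM0 and 30.9, 41.5 and 29.4 FPKM in RCdM5 (log2 change −1.75, SE 0.30, limma adjusted p = 0.00569). Lsat_1_v5_gn_4_64540 was 47.1, 33.3 and 47.6 FPKM in RCdM0 and 8.21, 12.1 and 9.68 FPKM in RCdM5 (log2 change −1.99, SE 0.33, limma adjusted p = 0.00524). Day 5 libraries were lower in each of these and the groups were far apart. In leaves Lsat_1_v5_gn_4_64540 was abundant on both days, at 31589.8, 42864 and 27098 FPKM in LCdM0 and 10255, 10662 and 11199.9 FPKM in LCdM5. Lsat_1_v5_gn_2_79600 was listed at 0 in the 3 LCdM0 libraries and at 2807, 8531 and 5271 FPKM in LCdM5, and Lsat_1_v5_gn_4_153980 was listed at 0 and at 33691, 41922 and 39655 FPKM. The fourth, Lsat_1_v5_gn_3_132321 of the pentose phosphate pathway, changed by −0.82 (limma adjusted p = 0.0264), and lost its call in all but the fit without RCdM0 replicate 3 among those that left out one library.

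The leaf markers measured in the same libraries were also lower in sum on day 5. Their summed level, as a percentage of the mean leaf level, was 0.891, 0.818 and 1.24 in RCdM0, 0.374, 0.375 and 0.479 in RCdM1 and 0.655, 0.725 and 0.325 in RCdM5. Of 41 tested markers 38 had negative changes with a median of −1.17, and 0 passed the test. Without RCdM5 replicate 3 the median went from −1.17 to −0.67 in the photosynthesis list and from −1.16 to −0.75 in the antenna list. At an unadjusted p under 0.05, 5 of 25 photosynthesis genes and 5 of 16 antenna genes were lower, against 8.09% of all tested genes. The part of leaf RNA in the falls of carbon fixation genes was not tested. Among all 179 fallers, 11 (6.15%) had a leaf mean over 100 times the root mean, against 207 of the tested genes (1.20%). None of the 351 risers did.

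The 2 fallers of cysteine and methionine metabolism, among 15 tested genes (13.3%, against 1.04% of all genes) with a median of −0.46, were Lsat_1_v5_gn_3_85440, 20.3, 5.4 and 21.5 FPKM in RCdM0 and 0.731, 2.46 and 2.39 FPKM in RCdM5 (log2 change −2.41, SE 0.49, limma adjusted p = 0.0168), and Lsat_1_v5_gn_6_65880, 218, 191 and 167 FPKM in RCdM0 and 109.7, 88.4 and 102 FPKM in RCdM5 (log2 change −0.93, SE 0.16, limma adjusted p = 0.00694). The latter, also annotated to sulfur metabolism and amino acid biosynthesis, kept its call without any one library, whereas the former lost it without RCdM0 replicate 1 or 3 or RCdM5 replicate 1. Starch and sucrose metabolism had 3 fallers of 21 (14.3%), amino sugar metabolism 2 of 28 (7.14%) and pentose and glucuronate interconversions 2 of 23 (8.70%), against 1.04% of all genes, and Lsat_1_v5_gn_1_13620 counts in all of them. In the pentose list the changes of all 23 genes were negative, with a median of −0.44, which was −0.21 without RCdM5 replicate 3. With one library left out these counts ranged over 0 to 4, 0 to 4 and 0 to 2. Among them Lsat_1_v5_gn_2_128781, a cell wall gene, was 16, 21 and 11.4 FPKM in RCdM0 and 5.1, 6.6 and 7.79 FPKM in RCdM5 (log2 change −1.17, SE 0.24, limma adjusted p = 0.0166), and its call was lost without RCdM0 replicate 1 or 2 or RCdM5 replicate 1.

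Plant hormone signal transduction had 3 fallers (7.89%, against 1.04% of all genes) and no riser among 38 tested genes, and 30 of the 38 changes were negative with a median of −0.31. Without RCdM5 replicate 3 that median was −0.15. The fallers numbered 1 to 4 with one library left out and 0 when only the compared groups were fitted. The 3 were abundant, tightly replicated genes. Lsat_1_v5_gn_8_164760, also annotated to kinase activity, was 73.5, 69.5 and 82.4 FPKM in RCdM0 and 34.9, 47.5 and 37.2 FPKM in RCdM5 (log2 change −0.91, SE 0.15, limma adjusted p = 0.00418). Lsat_1_v5_gn_5_95460 was 506, 398 and 559 FPKM in RCdM0 and 268, 253 and 286 FPKM in RCdM5 (log2 change −0.84, SE 0.17, limma adjusted p = 0.0141), and Lsat_1_v5_gn_5_72101, another kinase activity gene, was 313, 224 and 284 FPKM in RCdM0 and 125, 151 and 143 FPKM in RCdM5 (log2 change −0.96, SE 0.21, limma adjusted p = 0.0252). Of these only Lsat_1_v5_gn_8_164760 kept its call in every fit that left out one library.

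No member passed in 12 lists. In 5 of these, cell redox homeostasis (11 tested), microtubule-based movement (14), iron ion transport (8), chitinase activity (9) and glutathione metabolism (6), no gene reached an unadjusted p under 0.05 either. At that threshold 17.3% of all tested genes passed, 9.17% higher and 8.09% lower. The other lists were glycolysis, with 4 of 28 genes lower at an unadjusted p under 0.05, cellulose synthase activity with 1 of 14 higher, protein folding with 1 higher and 2 lower of 17, steroid biosynthesis with 3 higher and 3 lower of 37, xyloglucan transferase activity with 2 of 9 lower, and the photosynthesis and antenna lists. The chitinase gene Lsat_1_v5_gn_3_124781 differed widely between day 5 libraries. It was at 122, 126 and 379 FPKM in RCdM0 and 126, 218 and 46.8 FPKM in RCdM5, where RCdM5 replicate 3 was the lowest.

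Other antioxidant and hormone genes that the study singled out did not pass the test of day 5 against day 0. The study named most of them for differences with melatonin or between root and leaf, which this test does not address. Of thioredoxin (trxA) genes, Lsat_1_v5_gn_5_4600 was at 185, 168 and 179 FPKM in RCdM0 and 122, 104 and 66 FPKM in RCdM5 (limma adjusted p = 0.224) and Lsat_1_v5_gn_7_18261 at 494, 363 and 399 FPKM in RCdM0 and 314, 204 and 254 FPKM in RCdM5 (limma adjusted p = 0.266). The lipoxygenase gene Lsat_1_v5_gn_5_148821 was 66.8, 68.4 and 91.4 FPKM in RCdM0 and 77.2, 111 and 39.6 FPKM in RCdM5 with overlapping groups. The ascorbate peroxidase gene Novelgene1716 changed by −0.05, the GSH-like gene Lsat_1_v5_gn_5_187421 by 0.54, the ABF-like gene Lsat_1_v5_gn_1_21140, of the abscisic acid pathway, by −0.12, and the JAR1-like genes Lsat_1_v5_gn_4_34281 and Lsat_1_v5_gn_7_2120, of jasmonate signalling, by 0.25 and 0.16 on the log2 scale, none past the test.

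The largest rises among genes past the test belonged to genes with little or no annotation. Novelgene0037, a gene from the long-read transcriptome with no description at hand, was 0.583, 0 and 2.52 FPKM in RCdM0 and 174, 122 and 242 FPKM in RCdM5 (log2 change 6.61, SE 0.60, limma adjusted p = 8.27e-05). On day 1 it stood at 8.24, 6.67 and 20.4 FPKM. Lsat_1_v5_gn_4_62861 was 4.59, 1.77 and 3.32 FPKM in RCdM0 and 106, 87.3 and 219.9 FPKM in RCdM5 (log2 change 4.98, SE 0.39, limma adjusted p = 1.71e-05), and Lsat_1_v5_gn_8_28160 was 2.99, 2.07 and 4.74 FPKM in RCdM0 and 111, 101 and 154 FPKM in RCdM5 (log2 change 4.87, SE 0.51, limma adjusted p = 0.000143). Among annotated genes Lsat_1_v5_gn_4_182521, annotated to carbonate dehydratase activity, the interconversion of CO2 and bicarbonate, was 1.77, 0 and 2.71 FPKM in RCdM0 and 33.3, 21.5 and 68.5 FPKM in RCdM5 (log2 change 4.12, SE 0.68, limma adjusted p = 0.00511). Lsat_1_v5_gn_6_79980, a nucleoside metabolism gene with metal ion binding, was 0.405, 0.105 and 0.537 FPKM in RCdM0 and 23.7, 13.2 and 26.3 FPKM in RCdM5 (log2 change 3.99, SE 0.44, limma adjusted p = 0.000226). Lsat_1_v5_gn_5_55580, of quinone metabolism, rose from 56.4, 28.1 and 69.1 FPKM to 394, 228 and 344 FPKM (log2 change 2.69, SE 0.49, limma adjusted p = 0.00931). All of these held without any one library. Novelgene0611 was listed at 0 in the RCdM0 libraries and at 1.3, 6.55 and 18.8 FPKM in RCdM5, the 1 riser listed at 0 in all of RCdM0, and its call was lost in 5 of the 6 fits that left out one library, with limma adjusted p up to 0.133 without RCdM5 replicate 3.

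The steepest fall among genes past the test was that of Lsat_1_v5_gn_7_26981, annotated only to cellular process, which was 40.6, 79.9 and 51.5 FPKM in RCdM0 and 2.68, 2.94 and 0.317 FPKM in RCdM5 (log2 change −4.39, SE 0.53, limma adjusted p = 0.00046). It left RCdM5 replicate 3 the lowest of the 6 libraries, and the call held without it. Lsat_1_v5_gn_7_115161 and Lsat_1_v5_gn_5_136060 fell by 3.57 and 2.86 on the log2 scale. Both are leaf-abundant. The former lost its call whichever library was left out, and the latter without RCdM0 replicate 1 or 3 or RCdM5 replicate 1 or 3. Lsat_1_v5_gn_8_16060, a metal ion binding gene, was 606, 488 and 208 FPKM in RCdM0 and 106, 41.8 and 114 FPKM in RCdM5 (log2 change −2.29, SE 0.44, limma adjusted p = 0.0126), and its limma adjusted p was 0.0585 and 0.0526 without RCdM0 replicate 1 and 2. Lsat_1_v5_gn_4_50200, an oxidoreductase of lipid biosynthesis, was 44.1, 24.9 and 25.5 FPKM in RCdM0 and 5.95, 7.7 and 7.6 FPKM in RCdM5 (log2 change −1.97, SE 0.36, limma adjusted p = 0.00872). Novelgene3085 was at 1.47, 3.03 and 1.81 FPKM in RCdM0 and listed at 0 in the RCdM5 libraries.

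Genes of the highest expression also passed the test. Lsat_1_v5_gn_3_24720 was 5224, 4316 and 6121 FPKM in RCdM0 and 9456, 8252 and 7629 FPKM in RCdM5 (log2 change 0.70), Novelgene1560 was 1043, 1169 and 1551 FPKM in RCdM0 and 2754, 2244 and 3518 FPKM in RCdM5 (log2 change 1.17) and Lsat_1_v5_gn_5_147260 was 2020.4, 1849 and 1949 FPKM in RCdM0 and 1384, 1386 and 1439.7 FPKM in RCdM5 (log2 change −0.47). Novelgene1560 kept its call without any one library, Lsat_1_v5_gn_3_24720 lost it without RCdM0 replicate 1 or 2 or RCdM5 replicate 1, and Lsat_1_v5_gn_5_147260 without replicate 1 of either group. The changed genes as a whole were expressed above the typical root gene, with median FPKM of 29.8 among risers and 29.7 among fallers against 17.3. The median number of isoforms was 2 in each set. Genes found by long reads made up 44 of the risers (12.5%) and 14 of the fallers (7.82%), against 11.5% of tested genes. Genes with a leaf mean above the root mean made up 27.4% of risers and 36.3% of fallers, against 44.0% of tested genes.

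Day 1 values are given beside the net change. The comparisons RCdM1 minus RCdM0 and RCdM5 minus RCdM1 share libraries with the net comparison, so their values are set side by side only. The former called 209 genes (1.21%), with 0.372% of tested genes higher and 0.842% lower, and the latter 121 genes (0.702%), with 0.598% higher and 0.104% lower. Among the 351 risers the median change was 0.52 from day 0 to day 1 and 0.69 from day 1 to day 5. Among the 179 fallers it was −0.61 and −0.24. The day 1 mean lay between the day 0 and day 5 means in 314 of the risers (89.5%) and 127 of the fallers (70.9%), against 37.4% of all tested genes. Genes chosen for a gap between day 0 and day 5 are favoured in this count, so nothing is read from it.

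In roots without melatonin, which share no library with these, most of these genes moved the same way. RCd5 minus RCd0 called 943 genes (5.47%), 430 higher (2.50%) and 513 lower (2.98%). Of the 351 risers 336 were also higher in RCd5 than in RCd0 (95.7%, against 50.8% of tested genes), and 162 passed (46.2%). Of the 179 fallers 167 were also lower and 91 passed (50.8%). The median change of these sets without melatonin was 0.81 and −0.69, smaller than the 1.28 and −1.01 by which they had been chosen. After leaving out replicate 3 of both day 5 groups, a choice made after seeing the data, 287 genes were called (194 higher, 93 lower), 107 of the 194 passed as higher in RCd (55.2%, background 1.85%) and 51 of the 93 as lower (54.8%, background 1.44%).

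The change with melatonin was not shown to differ from that without it. The test of the difference called 0 of 17227 genes (limma, 1416 at an unadjusted p under 0.05), and 0 to 2 under the other settings run. Peroxidase Lsat_1_v5_gn_5_175381 rose by 2.84 with melatonin and by 2.33 without it, and metal ion transport gene Lsat_1_v5_gn_4_150921 by 2.50 and 2.23. Lsat_1_v5_gn_8_164760 of hormone signalling changed by −0.91 with melatonin and 0.06 without. One gene passed in opposite directions, Lsat_1_v5_gn_3_99700, which has no annotation at hand and was picked for that after its values were seen. It was 19.5, 14.7 and 31.4 FPKM in RCdM0 and 7.76, 3.36 and 3.84 FPKM in RCdM5, and 2.52, 3.63 and 17.2 FPKM in RCd0 and 22.4, 39 and 29.5 FPKM in RCd5 in the roots without melatonin. Its difference did not pass (limma adjusted p = 0.248), and its fall was lost whichever library was left out.

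**Figure D4:**
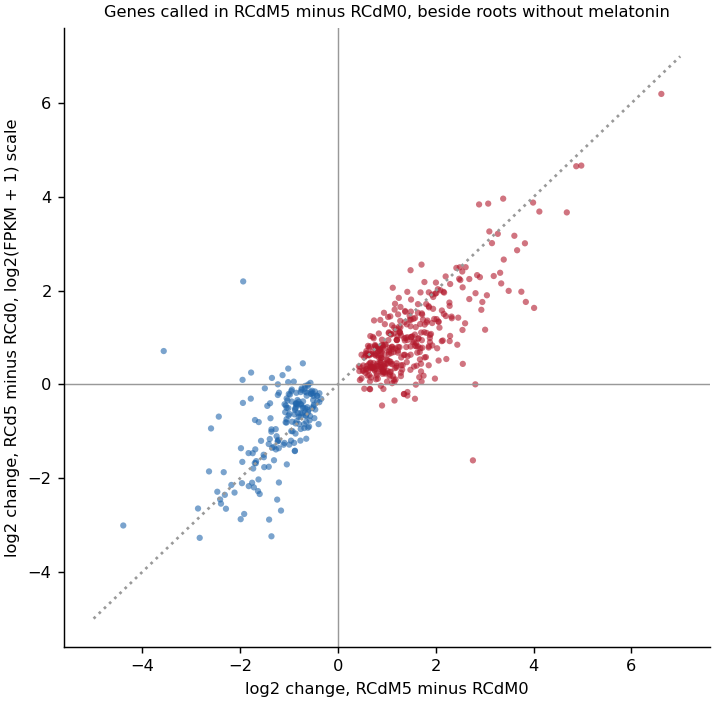
Log2 change of the 530 called genes with melatonin (RCdM5 minus RCdM0, horizontal) against the change of the same genes without melatonin (RCd5 minus RCd0, vertical), with a dotted line of equality. Of the 351 risers (red) 336 lie above 0 on the vertical axis and of the 179 fallers (blue) 12 do.

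Roots and leaves changed differently under the same pretreatment. The test of RCdM5 minus RCdM0 against LCdM5 minus LCdM0 called 2155 of 18056 genes (11.9%), 1335 with the root change higher (7.39%) and 820 with it lower (4.54%). Leaving out both replicate 3 libraries of the day 5 roots gave 1650. In the leaves alone 4671 genes passed (25.9%), with 10.4% of all genes higher and 15.5% lower. Of the 530 genes changed in root 223 differed between tissues, and in leaf 108 passed in the same direction and 48 in the other. Of the root risers 19.7% passed as higher in leaf and 7.12% as lower. Of the root fallers 21.8% passed as lower in leaf and 12.8% as higher. The shares over all genes tested in root were 10.6% higher and 14.6% lower. The 530 were chosen by the root change, which enters the test between tissues from the same libraries. That count of 223 is therefore favoured, and nothing is read from it.

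The 3 hormone genes that fell in root rose in leaf, and a rise in leaf was common in their list. Of its 38 tested members 17 passed as higher in leaf and 0 as lower, with a median leaf change of 0.70. Among all genes tested in root 10.6% passed as higher in leaf and 14.6% as lower. The study picked the genes of this list as changed in these libraries, leaves included. The leaf counts of the list are favoured by that, and nothing is read from them. The 3 were picked for their root fall, which enters the differences given here. Lsat_1_v5_gn_8_164760 was 48.3, 31 and 41.1 FPKM in LCdM0 and 134, 174 and 87.7 FPKM in LCdM5 (leaf log2 change 1.66), so that root and leaf changes differed by −2.56 (SE 0.25, limma adjusted p = 7.80e-07). For Lsat_1_v5_gn_5_95460 the leaf change was 1.86 and the difference −2.71 (adjusted p = 0.0003 by limma), and for Lsat_1_v5_gn_5_72101 they were 2.14 and −3.09 (adjusted p = 0.000203 by limma). The carbonate dehydratase gene Lsat_1_v5_gn_4_182521 went the other way, rising in root while it was 557, 1780.4 and 407 FPKM in LCdM0 and 68.6, 225 and 129.6 FPKM in LCdM5 (difference 6.66, SE 1.21, limma adjusted p = 0.000942). So did Lsat_1_v5_gn_5_55580 of quinone metabolism, which was 829, 684 and 741 FPKM in LCdM0 and 238, 349.6 and 324 FPKM in LCdM5 (difference 4.002, SE 0.55, limma adjusted p = 7.34e-05).

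Several root risers were barely measured in leaf. Peroxidase Lsat_1_v5_gn_5_175381 was 1.45, 1 and 1.44 FPKM in LCdM0 and 0.533, 1.25 and 0.814 FPKM in LCdM5 (difference 3.16, limma adjusted p = 0.00209), and Lsat_1_v5_gn_6_79980 was 0, 0 and 0 FPKM in LCdM0 and 0.106, 0 and 0 FPKM in LCdM5 (difference 3.94, limma adjusted p = 1.04e-05). For such genes the difference between tissues is mostly the root change. Among metal ion transporters Lsat_1_v5_gn_8_7341 was 15.6, 21.2 and 18.1 FPKM in LCdM0 and 13, 11.3 and 15.4 FPKM in LCdM5 (difference 2.98, limma adjusted p = 0.000942), and Lsat_1_v5_gn_4_56181, abundant in leaf, was 497, 628 and 679 FPKM in LCdM0 and 279.9, 673 and 739 FPKM in LCdM5 (difference 1.70, limma adjusted p = 0.012). The nitrogen gene Lsat_1_v5_gn_2_68621 was 489, 516 and 725 FPKM in LCdM0 and 728, 569.8 and 740.4 FPKM in LCdM5, a smaller leaf change of 0.25 (difference −1.30, limma adjusted p = 0.0196).

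**Figure D5:**
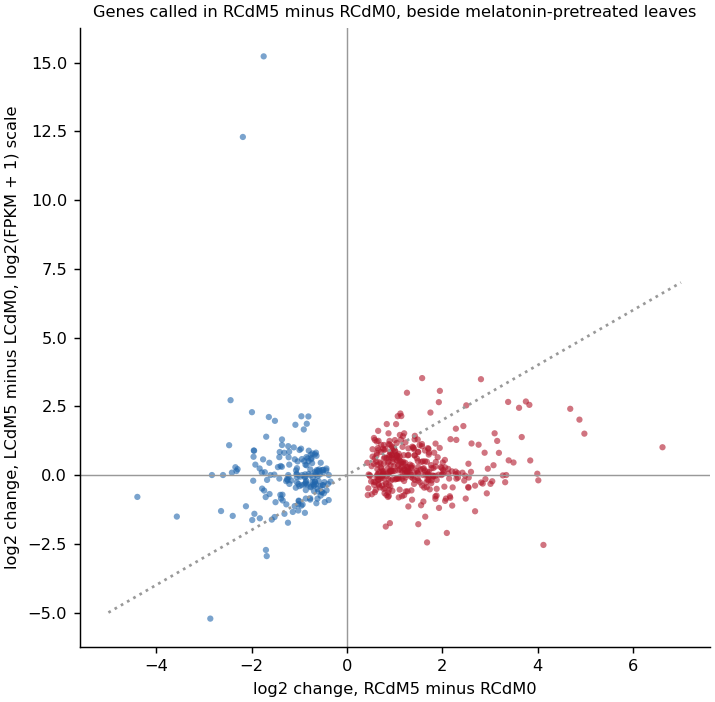
Log2 change of the 530 genes called in root (RCdM5 minus RCdM0, horizontal) against the change of the same genes in melatonin-pretreated leaves (LCdM5 minus LCdM0, vertical), red for risers and blue for fallers, with a dotted line of equality. The leaf changes scatter around 0 for most genes, and the 2 points highest on the vertical axis are Lsat_1_v5_gn_2_79600 and Lsat_1_v5_gn_4_153980, which are listed at 0 in LCdM0, so that their height has no meaning as a size.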

How the data were processed

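Roots and leaves were sequenced as 36 RNA-seq libraries. The authors deposited FPKM values per isoform, with reads mapped to a lettuce reference extended by long-read transcripts; the submitters' processing notes name TopHat2 2.0.12 and Bowtie2 2.0.6, and no source used here names the program that computed FPKM. FPKM keeps no read counts, so no counting intervals are given; clean reads per library were taken as depth. Isoform FPKM were added per gene (59872 isoforms, 19584 genes), a gene was kept if 3 or more libraries of the fit showed 1 FPKM or more, and log2(FPKM + 1) was tested with limma 3.58.1 in R 4.3.3 (trended variance, one mean per group, Benjamini-Hochberg adjustment over all genes tested, threshold 0.05). The study tested counts with DESeq, which FPKM do not allow. All 18 root libraries shared one estimate of the spread. Roots and leaves were compared in a fit of all 36. Fold changes on this scale understate those of low genes.

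The group, the gene lists and the rule for named genes were chosen with earlier results of these data known. Named genes were, among those past the test with groups not overlapping, the 10 largest rises and 10 largest falls with a term, the 3 largest of any kind, the 5 of highest mean FPKM, and the members of each list with the largest change, besides genes that the study's text gives by identifier and the 5 largest differences each way. Those differences were between root and leaf, in genes that were also tested in root. The other members of a list past the test were also named. Lists were genes under a term in complete cells of the study's enrichment tables. Iron ion transport, chitinase, xyloglucan transferase and glutathione lists were added later, and an iron ion binding list could not be made. On simulated data the test of RCdM5 minus RCdM0 recovered 64 of 100 genes changed by 1 and 89 of 100 changed by 2 on the log2 scale, with 7 false calls. The changed genes were drawn only from those above the median expression, with independent normal noise. Recovery among genes of lower expression was not measured. Alternatives were the pseudocount (0.1), no filter, median-ratio scaling, isoforms as listed, the Q30 share as a covariate, the compared groups alone, the replicate block and leaving out each library. Figures were drawn with matplotlib 3.10.9. No sequence or genome coordinate was used here.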

Additional observations from a re-analysis of the deposited data

Results flagged for a closer look

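Roots and leaves pretreated with melatonin were compared by a test of the difference between their changes from day 0 to day 5, and 2155 genes passed it. Those named here are the 5 largest differences each way among genes that were also tested in root.

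Toward the root the largest were Lsat_1_v5_gn_4_182521 (difference 6.66 on the log2 scale), Lsat_1_v5_gn_2_116160 (6.14), Novelgene0037 (5.60), Lsat_1_v5_gn_3_2541 (5.58) and Lsat_1_v5_gn_4_97640 (5.45). Lsat_1_v5_gn_2_116160 was 2.82, 3.31 and 3.07 FPKM in RCdM0 and 2.57, 3.3 and 3.78 FPKM in RCdM5, and 107, 127 and 99.3 FPKM in LCdM0 and 0.468, 0.412 and 1.11 FPKM in LCdM5. Its root groups overlapped and the difference lay in the leaf. The difference lay mostly in the leaf also for Lsat_1_v5_gn_4_97640, an oxidoreductase gene whose root change did not pass (limma adjusted p = 0.432). It was 126, 149 and 95.8 FPKM in RCdM0 and 159, 158 and 293 FPKM in RCdM5, and 1199, 622 and 878 FPKM in LCdM0 and 10.9, 42.9 and 59.3 FPKM in LCdM5. Lsat_1_v5_gn_3_2541 was 0, 0 and 0.121 FPKM in RCdM0 and 13.3, 0 and 0 FPKM in RCdM5, a rise in 1 library only, and 195, 283 and 116 FPKM in LCdM0 and 0.311, 15.1 and 34.5 FPKM in LCdM5. Novelgene0037, the largest root riser, was 16.3, 5.18 and 10.2 FPKM in LCdM0 and 13.8, 19 and 32.2 FPKM in LCdM5.

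Toward the leaf, Novelgene1240, described as a serine carboxypeptidase, had a difference of −8.02. It was 25.7, 93.5 and 98.6 FPKM in RCdM0 and 3.19, 17 and 3.17 FPKM in RCdM5, and 7.63, 11.4 and 5.73 FPKM in LCdM0 and 220.3, 226 and 312 FPKM in LCdM5. Lsat_1_v5_gn_3_138421 had a difference of −6.87, at 633, 577 and 371 FPKM in RCdM0 and 284, 169 and 41.6 FPKM in RCdM5, and 62.6, 69.4 and 65.5 FPKM in LCdM0 and 1374, 1808 and 2907 FPKM in LCdM5. Neither root change passed the test on its own (limma adjusted p = 0.0946 and 0.178), and RCdM5 replicate 3 was the lowest root library in the latter. The other 3 had a group listed at 0, so no size is given. Lsat_1_v5_gn_4_153980 (limma adjusted p = 2.14e-22) and Lsat_1_v5_gn_2_79600 (limma adjusted p = 4.24e-14) were listed at 0 in every LCdM0 library and were at 33691, 41922 and 39655 FPKM and 2807, 8531 and 5271 FPKM in LCdM5. Lsat_1_v5_gn_9_68900 (limma adjusted p = 0.0221) was 81.6, 74 and 52.3 FPKM in RCdM0 and 0, 0 and 0 FPKM in RCdM5, and 87.3, 0 and 0 FPKM in LCdM0 and 28.8, 149 and 83.2 FPKM in LCdM5, so zeros and high values occurred within 1 leaf group.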

How the results depend on the processing

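The 530 genes of RCdM5 minus RCdM0 numbered 512 with a pseudocount of 0.1, 498 when low genes were not filtered, 564 after scaling libraries by their median ratio and 469 isoforms with isoforms as listed. With the Q30 covariate the count was 0. Fitting only the compared groups gave 140 (112 higher, 28 lower, 120 among the 530). With one library left out the range was 217 to 558. Without replicate 3 of both day 5 root groups, an alternative chosen after seeing the data, it was 287. With the replicate block it was 552, 470 of them among the 530. Same-numbered RCdM0 and RCdM5 libraries did not deviate together (r of 0.04, −0.10 and −0.20), so the numbers were not taken as pairs. With the Q30 covariate all named calls were lost, 529 of the 530 kept their direction, and Novelgene0611 changed by −0.26. The Q30 shares of the groups do not overlap, and whether base quality or harvest day moved the counts cannot be told apart.

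For RCdM5 minus RCdM0 against RCd5 minus RCd0, where 0 genes passed, 1 passed without the filter, 2 isoforms with isoforms as listed, 1 when only the compared groups were fitted, and 0 to 1 with one library left out. In simulated data at this size the test recovered 32 of 100 log2 differences of 1 and 68 of 100 of 2. Differences of both sizes were thus often missed. These too were placed only in genes above the median expression. For RCdM5 minus RCdM0 against LCdM5 minus LCdM0, the 2155 became 1302 when only the compared groups were fitted, 1556 to 2113 with one library left out, and between 1650 and 2214 under the remaining alternatives. Of the 71 named genes that passed, 33 kept their call without each single library.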
